A study of Homo sapiens with 27 samples.

Results

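Oxygen-dependent expression was followed for 7 genes, NDRG1, ANKRD37, TMEM45A, DDIT4, FAM162A, AK4 and ERO1A, in 3 human cancer cell lines: PC-3 (from a prostate cancer), SK-OV-3 (from an ovarian adenocarcinoma) and WM793B (from a melanoma). They are 7 of 19775 genes with a probe set annotated to 1 gene. They are read by every probe set whose platform annotation gives 1 gene symbol among them, which made 17 of 54675 probe sets. A filter on variation asked that 20% of the arrays or more lie 1.5-fold or further from the median of the probe set. It was passed by 15 of the 17 and by 19800 probe sets in all, and each of the 7 genes kept at least 1. Of the 2 that did not pass, the ANKRD37 probe set 242548_x_at stayed between 2.30 and 2.87 and the FAM162A probe set 221533_at between 2.72 and 3.79 on the log2 scale, near the lowest value in the table, 2.28.

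Each line gave 3 biological replicate arrays of each of 3 conditions, 27 arrays in all. Control cells stayed at 21% oxygen for 72 h and chronic hypoxia cells at 1% oxygen for 72 h. Cycling hypoxia cells spent the 72 h in alternating periods, 4 h or 12 h at 1% oxygen with 4 h at 21% oxygen between them. The last period was one of reoxygenation. Cycling and chronic hypoxia therefore differed in the time at 1% oxygen and in the oxygen of the last period as well as in alternation. In comparisons of these conditions the 3 cannot be told apart. The paper also could not exclude that it measured reoxygenation more than cycling hypoxia. All cells grew on glass plates, and the labels name no genetic modification. The lines were kept in different media: RPMI for PC-3 and McCoy's for SK-OV-3, both with more serum than the Tu medium with insulin and calcium used for WM793B, so medium and line cannot be told apart. Each line stands for its tumour type by a single culture stock.

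Hypoxia-inducible factor (HIF) is a transcription factor whose alpha subunit is hydroxylated and degraded when oxygen is present. At low oxygen the subunit persists, pairs with its beta subunit and binds hypoxia response elements, whose core reads ACGTG or GCGTG, and on reoxygenation it is degraded within minutes. The transcripts it induced then remain for as long as their own stability allows. The 7 genes are known HIF targets outside glycolysis and angiogenesis: NDRG1 encodes a cytoplasmic stress-response protein studied as a metastasis suppressor, ANKRD37 a small ankyrin repeat protein, TMEM45A a transmembrane protein, DDIT4 (REDD1) an inhibitor of the growth kinase complex mTORC1, FAM162A and AK4 mitochondrial proteins, and ERO1A an oxidase of the endoplasmic reticulum. The genes were chosen by their log2 differences between hypoxic and control arrays in earlier results of this series. Differences from control are therefore given as descriptions without a test, and nothing is supported with them.

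RefSeq promoter windows of 300 bases (250 before to 50 after the annotated start, GRCh38.p14) were taken for 6 of the 7 genes. The search for windows of the 7 genes left out the chromosome of NDRG1, so none was taken for it. The windows are shown for ANKRD37 and DDIT4, which under cycling hypoxia reached or went below control in WM793B cells. They are also shown for FAM162A and ERO1A. The brightest probe sets of these kept 65.8% or more of the log2 difference between chronic hypoxia and control in each line. The pairs do not part in every line: DDIT4 kept 67.1% in SK-OV-3 cells. AK4, whose windows are not printed, was at -11.4% in PC-3 cells. Capitals mark the core ACGTG or GCGTG on the printed strand and its reverse complements CACGT and CACGC, and where CACGTG occurs, both strands hold an overlapping core. Each sequence runs 5′ to 3′ on the strand of the gene: ANKRD37 at chr4:185396591-185396890 (plus), DDIT4 at chr10:72273674-72273973 (plus), FAM162A at chr3:122383932-122384231 (plus) and ERO1A at chr14:52695509-52695808 (minus).
ANKRD37: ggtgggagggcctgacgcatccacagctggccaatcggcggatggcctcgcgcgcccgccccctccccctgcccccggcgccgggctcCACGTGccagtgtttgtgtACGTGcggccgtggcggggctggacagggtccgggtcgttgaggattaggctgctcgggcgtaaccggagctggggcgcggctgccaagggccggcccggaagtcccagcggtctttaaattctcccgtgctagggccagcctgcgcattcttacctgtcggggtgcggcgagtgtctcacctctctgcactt
DDIT4: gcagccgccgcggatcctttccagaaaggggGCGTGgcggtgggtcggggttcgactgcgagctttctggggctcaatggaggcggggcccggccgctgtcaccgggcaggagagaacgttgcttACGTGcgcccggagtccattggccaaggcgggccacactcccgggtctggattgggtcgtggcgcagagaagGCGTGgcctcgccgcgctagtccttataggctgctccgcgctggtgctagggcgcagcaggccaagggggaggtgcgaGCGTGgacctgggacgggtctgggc
FAM162A: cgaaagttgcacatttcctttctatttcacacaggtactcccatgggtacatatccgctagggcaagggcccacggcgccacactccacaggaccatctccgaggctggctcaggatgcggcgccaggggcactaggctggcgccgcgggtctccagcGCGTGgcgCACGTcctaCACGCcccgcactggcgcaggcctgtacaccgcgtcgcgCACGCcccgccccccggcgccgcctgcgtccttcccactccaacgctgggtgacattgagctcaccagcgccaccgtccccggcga
ERO1A: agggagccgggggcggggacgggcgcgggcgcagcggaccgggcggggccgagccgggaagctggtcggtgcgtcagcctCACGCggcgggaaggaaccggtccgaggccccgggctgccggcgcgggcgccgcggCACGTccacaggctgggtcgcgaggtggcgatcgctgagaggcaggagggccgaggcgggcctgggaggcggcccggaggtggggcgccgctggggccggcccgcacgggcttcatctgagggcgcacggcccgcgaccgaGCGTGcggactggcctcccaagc

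The ANKRD37 window held 3 cores, all with A as the first letter on one of the strands and starting at positions -162, -161 and -143 from the annotated start. The DDIT4 window held 4 (at -219, -125, -53 and 26), the FAM162A window 4 (at -92, -84, -75 and -36) and the ERO1A window 3 (at -170, -114 and 28). AK4 had 4 windows, at different annotated starts on chromosome 1, with 3, 3, 3 and 1 cores. The TMEM45A window at chr3:100492369-100492668 (plus) held none of the 4 letter strings. Of all 35116 windows in the RefSeq table, 48.4% held at least 1 core, 23.1% at least 2, and 21.4% held ACGTG on either strand. Each core is a match of letters and no measured binding, and a relation between cores and responses was not tested.

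**Figure D1:**
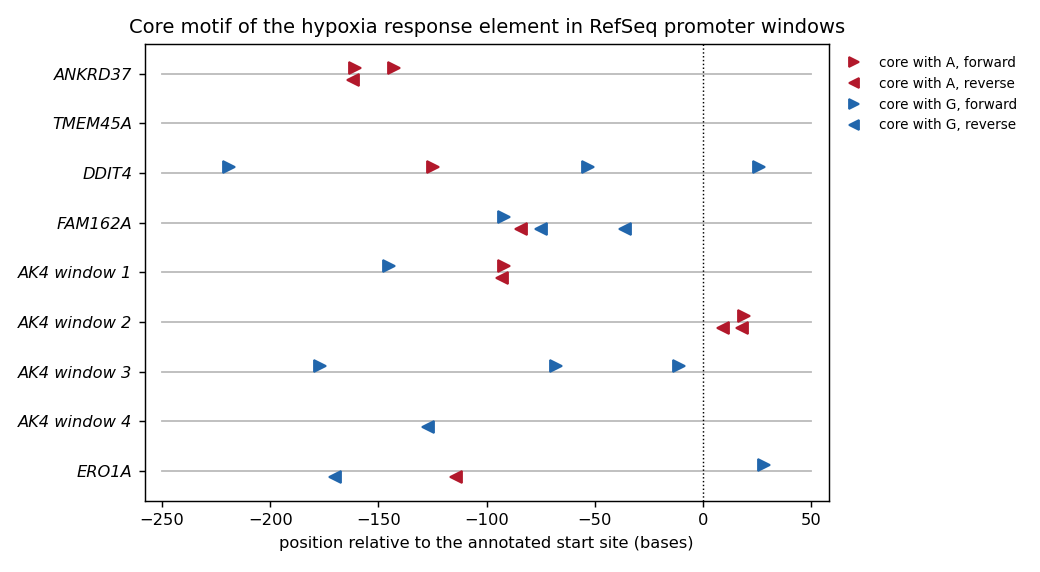
Positions of the core motif (triangles pointing right on the strand of the gene, left on the other strand, red for the core that begins with A, blue for the core that begins with G) along the promoter windows of 6 genes, with the position from the annotated start in bases on the horizontal axis. ANKRD37, DDIT4, FAM162A and ERO1A carry 3, 4, 4 and 3 cores, and the TMEM45A window carries none.

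The labels of the lines were set against marker genes. All 6 epithelial markers on the array had a median log2 value of at least 5 in the prostate and the ovarian line, and 0 of 6 in the melanoma line. WM793B had 3 of 6 melanocyte markers at this level (SOX10, S100B and MITF), while MLANA, PMEL and TYR were at the lowest value of the table, and MITF was also above 5 in the other lines. Of the prostate markers only HOXB13 reached 5 in PC-3 cells, and 0 of 4 leukocyte and erythroid markers did in any line. Of 4 ovarian and Mullerian markers, 2 reached 5 in SK-OV-3 cells (PAX8 and ESR1), where MUC16 was at the lowest value. The remaining marker, WT1, had a median of 3.59 in SK-OV-3 cells but 5.52 in PC-3 and 6.61 in WM793B cells. Replicate arrays correlated at 0.984 or more across probe sets, and the lowest value belonged to WM793B chronic hypoxia, whose replicate 3 also had the largest deviation from its group mean (SD over probe sets 0.28).

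In each line the chronic arrays of all 7 genes lay above the control arrays without overlap, against 28.5%, 25.2% and 23.1% of all filtered probe sets in PC-3, SK-OV-3 and WM793B cells. In cycling hypoxia the arrays lay above control for 6, 7 and 5 of the 7 genes, against 27.7%, 25.0% and 19.0% of all filtered probe sets. These differences had served to choose the genes, so nothing is read from the counts. Cycling against chronic hypoxia had not served to choose them, but it uses the same chronic and cycling arrays. A choice for high chronic values favours a fall. The shares over all filtered probe sets, most of which did not rise in chronic hypoxia, are therefore given as background and not as the count that no change would give. A gene was called where limma gave an adjusted p under 0.05 (Benjamini-Hochberg over all filtered probe sets). The arrays read the pooled RNA of a culture, so a lower level in every cell and fewer expressing cells cannot be told apart.

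Cycling values were lower than chronic values for most of the genes. In PC-3 cells 6 of the 7 were called lower, against 12.9% of all filtered probe sets. In SK-OV-3 cells 6 of the 7 were called lower, against 14.1%. In WM793B cells 3 of the 7 were called lower, against 6.95%. None of the 7 was called higher by limma in any line, where 25.1%, 16.4% and 8.13% of all filtered probe sets were, and none was higher at an unadjusted p under 0.05, at which 6, 7 and 6 were lower. The median difference over the 7 genes was -0.66, -1.39 and -0.91 on the log2 scale, beside medians of 0.06, 0.00 and 0.03 over all filtered probe sets. Every cycling array lay below every chronic array for 6, 7 and 6 genes, against 17.2%, 20.4% and 14.2% of all filtered probe sets.

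**Figure D2:**
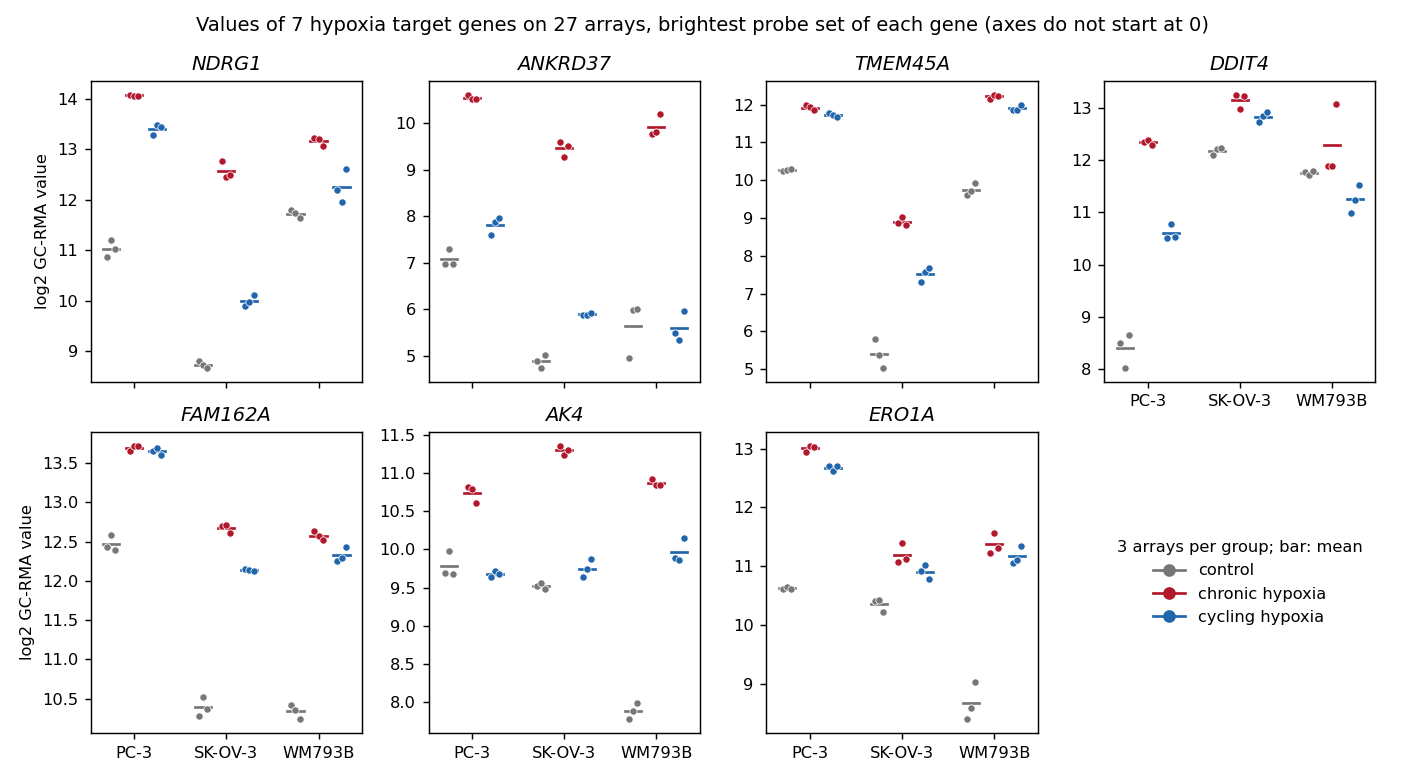
The log2 GC-RMA value of each gene's brightest probe set on all 27 arrays (points) with the mean of each group of 3 arrays (bars), by cell line on the horizontal axis and by condition in colour, and the vertical axes differ between genes and do not start at 0. ANKRD37 falls back to 5.34 to 5.97 under cycling hypoxia in WM793B cells, where control arrays run from 4.96 to 6.01, while FAM162A in PC-3 cells reads 13.61 to 13.69 under cycling and 13.66 to 13.72 under chronic hypoxia.

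ANKRD37, an ankyrin repeat protein of poorly known function, had the largest fall from chronic to cycling hypoxia of the 7 genes in each line. In PC-3 cells its log2 values were 6.98, 7.29 and 6.98 in control, 10.61, 10.51 and 10.52 in chronic hypoxia and 7.60, 7.87 and 7.96 in cycling hypoxia. In SK-OV-3 cells they were 4.90, 4.74 and 5.03 in control, 9.60, 9.28 and 9.52 in chronic hypoxia and 5.89, 5.89 and 5.92 in cycling hypoxia. In WM793B cells they were 4.96, 5.98 and 6.01 in control, 9.77, 9.81 and 10.19 in chronic hypoxia and 5.50, 5.34 and 5.97 in cycling hypoxia. The chronic arrays stood far above all others in each line, and the cycling arrays overlapped control in WM793B cells and lay just above control in the others. Chronic hypoxia was above control by 11.0-fold, 23.9-fold and 19.3-fold, and cycling hypoxia by 1.66-fold and 2.02-fold in the prostate and ovarian lines, while the ratio of means was 0.968 in WM793B cells, where the log2 difference from control ran from -0.39 to 0.13 with single arrays left out. Cycling minus chronic hypoxia was -2.73 (SE 0.12, adjusted p = 4.25e-05) for PC-3, -3.57 (SE 0.10, adjusted p = 1.05e-05) for SK-OV-3 and -4.32 (SE 0.31, adjusted p = 0.001) for WM793B cells, a 6.64-fold, 11.8-fold and 19.98-fold lower level. The share of the log2 difference between chronic hypoxia and control that was also seen under cycling hypoxia was 21.1%, 22.1% and -1.09%, and both differences in this share use the same control arrays.

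NDRG1 was read by a single probe set. Its log2 values in PC-3 cells were 10.87, 11.20 and 11.02 in control, 14.09, 14.07 and 14.06 in chronic hypoxia and 13.29, 13.49 and 13.45 in cycling hypoxia. In SK-OV-3 cells they were 8.81, 8.72 and 8.66 in control, 12.78, 12.46 and 12.49 in chronic hypoxia and 9.89, 9.97 and 10.11 in cycling hypoxia. In WM793B cells they were 11.81, 11.73 and 11.64 in control, 13.23, 13.21 and 13.06 in chronic hypoxia and 12.20, 11.96 and 12.60 in cycling hypoxia. The 3 conditions did not overlap in any line and stood in the order control, cycling, chronic. The difference between cycling and chronic values was -0.66 (SE 0.09, adjusted p = 0.00147) for PC-3, -2.59 (SE 0.10, adjusted p = 2.17e-05) for SK-OV-3 and -0.91 (SE 0.15, adjusted p = 0.0114) for WM793B cells. The level under chronic hypoxia was above control by 8.24-fold, 14.4-fold and 2.71-fold, and under cycling hypoxia by 5.21-fold, 2.39-fold and 1.44-fold, so that 78.3%, 32.8% and 36.6% of the log2 difference was seen under cycling hypoxia. The fall in SK-OV-3 cells differed from that in PC-3 cells by -1.92 (SE 0.18, adjusted p = 1.03e-07), and from that in WM793B cells with an adjusted p of 6.05e-07, while WM793B and PC-3 cells differed by -0.25 (SE 0.18, adjusted p = 0.415).

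TMEM45A, a transmembrane protein described in keratinising epithelium, stayed near its chronic level under cycling hypoxia except in SK-OV-3 cells. In PC-3 cells its log2 values were 10.26, 10.27 and 10.30 in control, 11.98, 11.93 and 11.86 in chronic hypoxia and 11.78, 11.72 and 11.68 in cycling hypoxia. In SK-OV-3 cells, where control was low, they were 5.80, 5.37 and 5.03 in control, 8.86, 9.04 and 8.81 in chronic hypoxia and 7.31, 7.57 and 7.67 in cycling hypoxia. The WM793B arrays read 9.60, 9.72 and 9.94 in control, 12.16, 12.26 and 12.24 in chronic hypoxia and 11.85, 11.86 and 12.00 in cycling hypoxia. Cycling arrays lay between control and chronic arrays without overlap in each line, close to chronic hypoxia in PC-3 and WM793B cells. Cycling minus chronic hypoxia was -0.20 (SE 0.04, adjusted p = 0.00904) for PC-3 and -1.39 (SE 0.19, adjusted p = 0.00219) for SK-OV-3 cells, and the difference of -0.32 (SE 0.09, adjusted p = 0.0598) in WM793B cells was not called. The shares of the chronic difference seen under cycling hypoxia were 88.0%, 60.4% and 87.2%. The fall was larger in SK-OV-3 than in PC-3 cells (difference -1.19, SE 0.19, adjusted p = 7.65e-05), and PC-3 and WM793B cells differed by -0.12 (SE 0.19, adjusted p = 0.764).

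DDIT4 acts through the TSC1 and TSC2 complex, which switches off the mTORC1 activator RHEB and so restrains protein synthesis when oxygen or energy is short. In PC-3 cells its log2 values were 8.50, 8.02 and 8.66 in control, 12.35, 12.38 and 12.29 in chronic hypoxia and 10.50, 10.78 and 10.53 in cycling hypoxia. In SK-OV-3 cells they were 12.10, 12.21 and 12.24 in control, 13.25, 12.98 and 13.23 in chronic hypoxia and 12.73, 12.84 and 12.93 in cycling hypoxia. In WM793B cells they were 11.77, 11.71 and 11.80 in control, 11.90, 11.90 and 13.08 in chronic hypoxia and 11.00, 11.24 and 11.53 in cycling hypoxia. The gene started low in PC-3 and high in the other lines, and in WM793B cells every cycling array lay below every control array. Relative to chronic hypoxia, cycling hypoxia gave -1.73 (SE 0.16, adjusted p = 0.000369) for PC-3 and -0.32 (SE 0.09, adjusted p = 0.0334) for SK-OV-3 cells. In WM793B cells it was -1.04 (SE 0.32, adjusted p = 0.072) and not called. Replicate 3 of WM793B chronic hypoxia, at 13.08, stood apart from the other chronic arrays, and without it the difference was -0.64 with an adjusted p of 0.031. The call in SK-OV-3 cells was lost when any of 5 of the 9 arrays of that line was left out, with differences from -0.41 to -0.27.

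Against control, DDIT4 was 15.4-fold, 1.96-fold and 1.45-fold higher in chronic hypoxia in PC-3, SK-OV-3 and WM793B cells, and without replicate 3 of WM793B chronic hypoxia the last of these was 1.10-fold. Under cycling hypoxia it was 4.64-fold and 1.57-fold above control in the prostate and ovarian lines and at 0.705 times control in WM793B cells, a log2 difference of -0.50 from control. The fall from chronic to cycling hypoxia differed between SK-OV-3 and PC-3 cells by 1.42 (SE 0.31, adjusted p = 0.00135) and did not pass the test between WM793B and PC-3 cells (0.70, SE 0.31, adjusted p = 0.145). Without that same array the latter difference was 1.09 and was called (adjusted p = 0.00141).

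FAM162A, a mitochondrial protein implicated in hypoxic cell death, was near its chronic level under cycling hypoxia in PC-3 cells by its brightest probe set and fell in SK-OV-3 cells. In PC-3 cells the log2 values of its brightest probe set were 12.44, 12.58 and 12.40 in control, 13.66, 13.72 and 13.72 in chronic hypoxia and 13.65, 13.69 and 13.61 in cycling hypoxia. In SK-OV-3 cells they were 10.28, 10.52 and 10.36 in control, 12.70, 12.71 and 12.61 in chronic hypoxia and 12.16, 12.14 and 12.13 in cycling hypoxia. For WM793B cells they were 10.42, 10.36 and 10.24 in control, 12.64, 12.58 and 12.52 in chronic hypoxia and 12.25, 12.30 and 12.43 in cycling hypoxia. Chronic and cycling arrays overlapped in PC-3 cells only, and both stood well above control in each line. Cycling minus chronic hypoxia was -0.05 (95% confidence interval -0.17 to 0.08, adjusted p = 0.521) in PC-3 cells. It was -0.53 (SE 0.07, adjusted p = 0.0014) in SK-OV-3 cells and -0.25 (SE 0.07, adjusted p = 0.0544) in WM793B cells, which was not called. The shares of the chronic difference seen under cycling hypoxia were 96.0%, 76.9% and 88.7%, and SK-OV-3 and PC-3 cells differed in the fall by -0.48 (SE 0.12, adjusted p = 0.00342).

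AK4, an adenylate kinase of the mitochondrial matrix, belongs to the enzymes that pass phosphate groups between adenine nucleotides. In PC-3 cells its log2 values were 9.69, 9.98 and 9.68 in control, 10.81, 10.79 and 10.61 in chronic hypoxia and 9.63, 9.72 and 9.68 in cycling hypoxia. In SK-OV-3 cells they were 9.52, 9.56 and 9.48 in control, 11.36, 11.24 and 11.30 in chronic hypoxia and 9.64, 9.74 and 9.87 in cycling hypoxia. In WM793B cells they were 7.77, 7.88 and 7.99 in control, 10.93, 10.85 and 10.85 in chronic hypoxia and 9.89, 9.86 and 10.15 in cycling hypoxia. These are values of its brightest probe set. By it, AK4 under cycling hypoxia was back at control in PC-3 cells, where the arrays overlapped, and just above control in SK-OV-3 cells. In WM793B cells it stayed more than midway between control and chronic hypoxia. By 204348_s_at the cycling arrays lay above control in PC-3 cells, with 18.4% of the chronic difference. In SK-OV-3 cells they overlapped control by 204348_s_at and by 230630_at. From chronic to cycling hypoxia the difference was -1.06 (SE 0.09, adjusted p = 0.000288) for PC-3, -1.55 (SE 0.07, adjusted p = 3.2e-05) for SK-OV-3 and -0.91 (SE 0.09, adjusted p = 0.00269) for WM793B cells. The chronic level was 1.93-fold, 3.44-fold and 7.97-fold above control, and the cycling level 0.927, 1.17 and 4.25 times control, so that -11.4%, 13.1% and 69.7% of the chronic difference was seen under cycling hypoxia. WM793B control cells had the lowest AK4 level of the 9 groups, 7.88, and its chronic level of 10.87 lay within the range of the other lines' chronic means of 10.74 and 11.30.

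ERO1A reoxidises protein disulfide isomerase in the endoplasmic reticulum and uses oxygen to do so, which lets secreted proteins form disulfide bonds. In PC-3 cells the log2 values of its brightest probe set were 10.62, 10.65 and 10.62 in control, 12.94, 13.05 and 13.03 in chronic hypoxia and 12.70, 12.62 and 12.70 in cycling hypoxia. In SK-OV-3 cells they were 10.41, 10.42 and 10.23 in control, 11.07, 11.39 and 11.13 in chronic hypoxia and 10.92, 11.02 and 10.79 in cycling hypoxia. The WM793B arrays gave 8.41, 8.60 and 9.04 in control, 11.24, 11.57 and 11.32 in chronic hypoxia and 11.05, 11.11 and 11.35 in cycling hypoxia. Cycling arrays were near chronic arrays in each line and overlapped them in WM793B cells. The difference, cycling minus chronic, was -0.33 (SE 0.04, adjusted p = 0.000783) in PC-3 cells, and it was not called in SK-OV-3 cells (-0.29, SE 0.11, adjusted p = 0.0792) or in WM793B cells (-0.20, 95% confidence interval -0.62 to 0.22, adjusted p = 0.506). Of the chronic difference, 86.0%, 65.8% and 92.5% was seen under cycling hypoxia by this probe set.

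**Figure D3:**
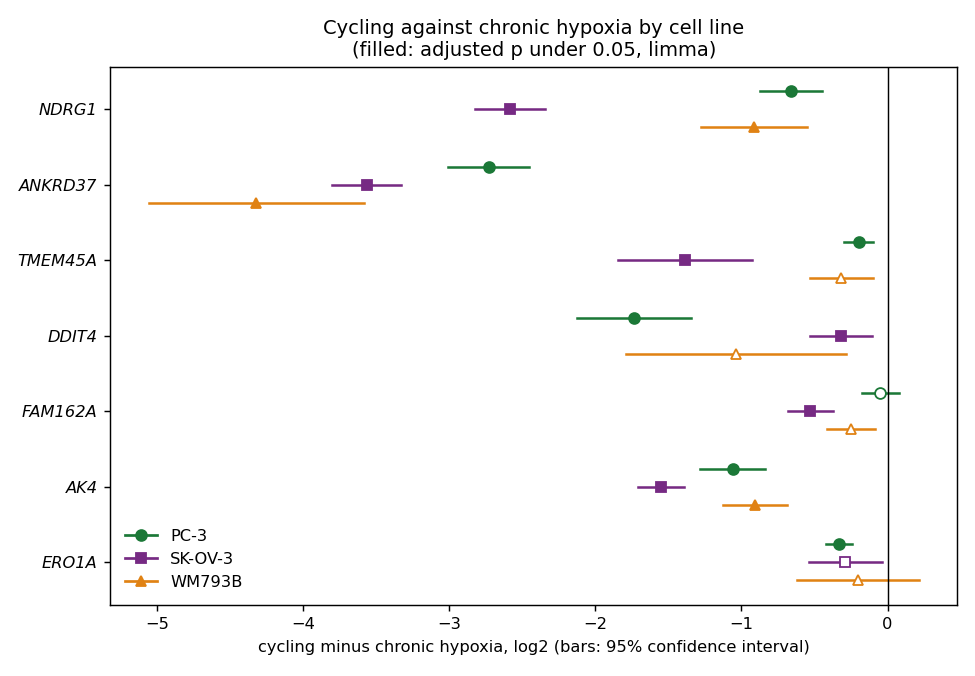
Cycling minus chronic hypoxia on the log2 scale (horizontal axis) for the brightest probe set of each gene in the 3 lines, with 95% confidence intervals, filled where limma's adjusted p was under 0.05. All 21 differences lie below 0, from -4.32 for ANKRD37 in WM793B cells to -0.05 for FAM162A in PC-3 cells.

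**Figure D4:**
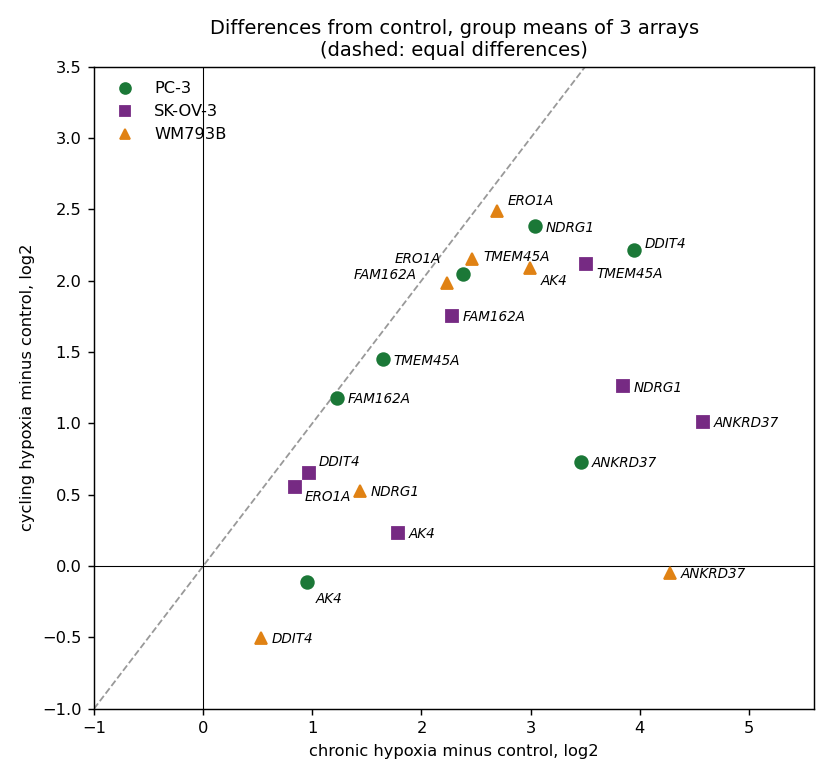
Cycling minus control (vertical axis) against chronic minus control (horizontal axis), log2, for each gene and line, with the dashed line where both are equal, and both axes share the control arrays. ANKRD37 lies far to the right and low in each line, with 0.73, 1.01 and -0.05 on the vertical axis. FAM162A in PC-3 cells lies nearest the dashed line.

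The size of the fall from chronic to cycling hypoxia depended on the line for 6 of the 7 genes (limma F-test of the interaction), against 40.7% of all filtered probe sets. This test, too, uses the arrays whose differences from control had served to choose the genes. The adjusted p was 7.68e-08 for NDRG1, 6.72e-05 for TMEM45A, 0.000711 for ANKRD37, 0.00257 for AK4, 0.00325 for DDIT4 and 0.0079 for FAM162A. By the brightest probe set it was 0.833 for ERO1A, and the 3 pairwise differences for ERO1A lay between 0.04 and 0.13 with an SE of 0.19. By its value, the fall was largest in SK-OV-3 cells for NDRG1, TMEM45A, FAM162A and AK4, WM793B cells for ANKRD37 and PC-3 cells for DDIT4. The fall of AK4 in SK-OV-3 cells differed from that in PC-3 cells by -0.49 (SE 0.14, adjusted p = 0.0114), and the fall of ANKRD37 in WM793B cells from that in PC-3 cells by -1.59 (SE 0.29, adjusted p = 0.000966). This order was not called for every pair: WM793B and SK-OV-3 cells differed by -0.76 for ANKRD37 (SE 0.29, adjusted p = 0.0555) and by 0.28 for FAM162A (SE 0.12, adjusted p = 0.0814), and the fall of DDIT4 in PC-3 cells was not called larger than that in WM793B cells.

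Genes with several probe sets did not give the same size of fall by each of them. For ERO1A, the probe set 225750_at gave -1.12, -1.31 and -0.47 and 218498_s_at gave -0.40, -0.83 and -0.48 in PC-3, SK-OV-3 and WM793B cells, all called, where the brightest, 222646_s_at, gave -0.33, -0.29 and -0.20. By 225750_at, 53.0%, 36.6% and 74.1% of the chronic difference was seen under cycling hypoxia, and the fall differed between lines (F-test adjusted p = 0.000232, and 0.0381 by 218498_s_at). By 218498_s_at the shares were 83.05%, 47.06% and 78.58%. The statement that ERO1A stayed near its chronic level in each line therefore holds for its brightest probe set. It does not hold for 225750_at, nor for 218498_s_at in SK-OV-3 cells.

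For FAM162A, the dim probe set 235850_at (mean log2 value 4.19) gave falls of -0.99, -2.26 and -1.29, all called, and kept 13.8%, 26.0% and 35.7% of the chronic difference, while 220942_x_at and 224345_x_at lay within 0.10 of the brightest in each line, at 0.04 and -0.01 in PC-3 cells. The levels of FAM162A near chronic hypoxia are therefore those of its bright probe sets and not of 235850_at. The ending of the 3 bright ones marks probes that may also bind other transcripts. The 4 probe sets of AK4 gave falls between -1.06 and -0.82 in PC-3, between -1.89 and -1.14 in SK-OV-3 and between -1.20 and -0.90 in WM793B cells, and all were called. The difference between lines in AK4 was called by 225342_at and 230630_at (adjusted p = 0.0032 for the latter) and not by 204348_s_at (0.0971) or 204347_at (0.861). Why probe sets of a gene differed was not tested.

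**Figure D5:**
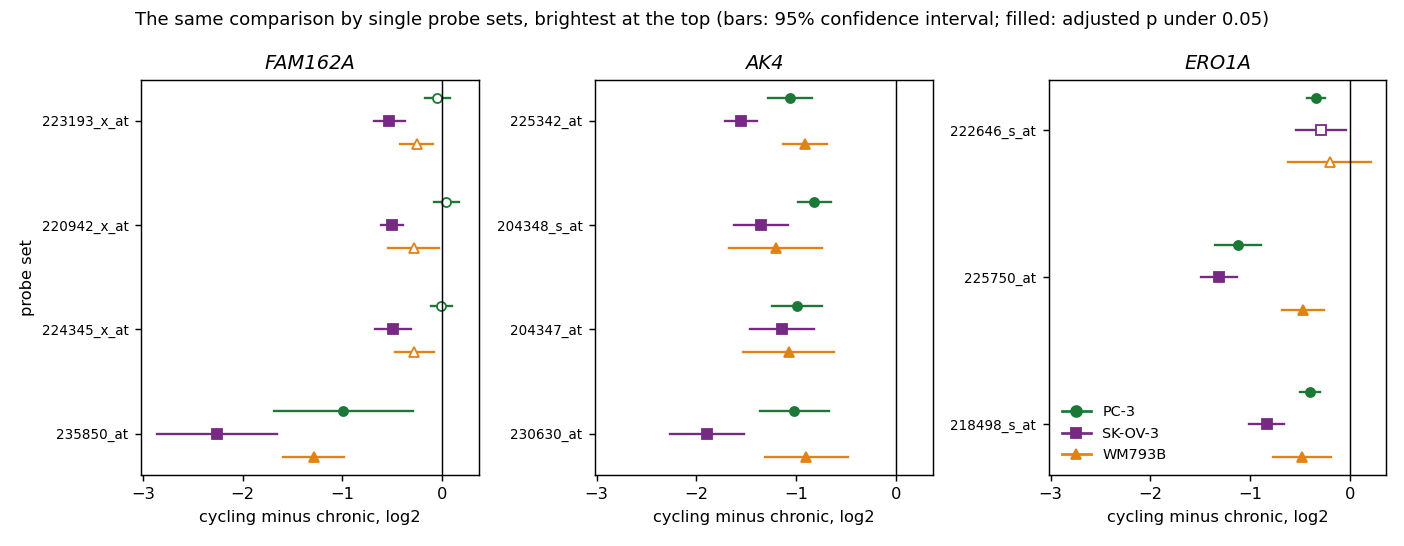
Cycling minus chronic hypoxia on the log2 scale (horizontal axis) by every filtered probe set of FAM162A, AK4 and ERO1A (vertical axis, brightest at the top) in the 3 lines, with 95% confidence intervals, filled where the adjusted p was under 0.05. The AK4 probe sets agree in sign and call, while 235850_at of FAM162A and 225750_at of ERO1A fall further than the brightest probe set of their gene.

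Before hypoxia the lines already differed. Control levels differed between SK-OV-3 and PC-3 cells for 6 of the 7 genes, against 78.1% of all filtered probe sets, between WM793B and PC-3 cells for 7, against 77.7%, and between WM793B and SK-OV-3 cells for 5, against 80.6%, so that such differences were as common among all probe sets. TMEM45A was lower in SK-OV-3 than in PC-3 cells by a log2 difference of -4.88 (SE 0.14, adjusted p = 3.72e-19), and NDRG1 by -2.30 (SE 0.13, adjusted p = 1.54e-13). DDIT4 was higher than in PC-3 cells in both other lines, with a log2 difference of 3.79 in SK-OV-3 (SE 0.22, adjusted p = 2.62e-13) and 3.37 in WM793B cells (SE 0.22, adjusted p = 2.1e-12), and NDRG1 was higher in WM793B than in PC-3 cells by 0.70 (SE 0.13, adjusted p = 3.49e-05). FAM162A did not pass the test between WM793B and SK-OV-3 cells (-0.05, SE 0.08, adjusted p = 0.585), nor did DDIT4 (-0.42, SE 0.22, adjusted p = 0.0791).

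Over the 9 groups, NDRG1 was highest in PC-3 chronic hypoxia (mean 14.07) and lowest in SK-OV-3 control (8.73), and of the neighbours in this order only SK-OV-3 chronic and WM793B cycling hypoxia overlapped. TMEM45A, ANKRD37 and ERO1A were highest under chronic hypoxia in WM793B (12.22), PC-3 (10.54) and PC-3 cells (13.01). DDIT4 was highest in SK-OV-3 chronic hypoxia (13.15), followed by SK-OV-3 cycling hypoxia (12.83), and lowest in PC-3 control (8.39), with SK-OV-3 control at 12.18 overlapping WM793B chronic hypoxia. FAM162A was highest in PC-3 chronic (13.70) and cycling hypoxia (13.65), which overlapped, and the PC-3 control (12.47) overlapped chronic hypoxia and cycling hypoxia of WM793B cells.

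After subtracting each line's mean, the genes were compared with all others over the 27 arrays, as a description, since all points share 3 conditions and groups of replicates. TMEM45A and FAM162A ran most alike among the 7 (Pearson r 0.971), and DDIT4 and AK4 least (0.371). The nearest genes outside the 7 were PLOD2, a collagen lysyl hydroxylase, for NDRG1 (0.975), HILPDA, a lipid droplet protein, for ANKRD37 (0.975), P4HA1, a collagen prolyl hydroxylase, for TMEM45A (0.980), and the glycolytic PGK1 for FAM162A (0.990). They were UGCG, a glucosylceramide synthase, for DDIT4 (0.961), SEC23A, a vesicle coat protein, for ERO1A (0.971), and BNIP3, a mitophagy receptor, for AK4 (0.930). ANKRD37 was next followed by TENT5A (0.974) and POFUT4 (0.970), TMEM45A by SPAG4 (0.979), and FAM162A by ALDOC (0.987).

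The fall from chronic to cycling hypoxia was set beside that of other HIF targets. Of a list of 32, 31 were on the array and 29 passed the filter on variation, which LDHA and EGLN3 did not. Called lower were 25, 25 and 21 of the 29 in PC-3, SK-OV-3 and WM793B cells, against the same 12.9%, 14.1% and 6.95% of all filtered probe sets. None was called higher by limma in any line, and none was higher at an unadjusted p under 0.05. The median difference was -0.99, -1.09 and -0.95, beside the medians of 0.06, 0.00 and 0.03 over all filtered probe sets. Without the filter, and with each gene read by its brightest probe set of all, an alternative chosen after seeing the data, 25, 25 and 16 of 31 were called lower. ANGPTL4, a secreted inhibitor of lipoprotein lipase, fell most in each line, with -3.72 (SE 0.14), -4.56 (SE 0.27) and -3.70 (SE 0.30), beside -2.73, -3.57 and -4.32 for ANKRD37. The phosphofructokinase regulators followed, PFKFB3 with -2.46 for PC-3 cells and PFKFB4 with -4.01 for SK-OV-3 and -2.99 for WM793B cells.

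At the other end, PGK1 gave 0.06 (SE 0.04, adjusted p = 0.338) in PC-3 and -0.11 (SE 0.06, adjusted p = 0.236) in WM793B cells, near the values of FAM162A, to which it ran most alike. It fell by 0.32 (SE 0.07, adjusted p = 0.0154) in SK-OV-3 cells, and by the mean over its probe sets it fell by 0.28 in PC-3 cells too (adjusted p = 0.0113). LOX, the collagen cross-linking oxidase, gave -0.08 (SE 0.08, adjusted p = 0.533) in SK-OV-3 cells. A fall could not be read where a gene had no signal: CA12, a carbonic anhydrase, gave 0.01 in WM793B cells, where its group means were near the lowest value of the table, and SLC2A3 gave 0 in the prostate and ovarian lines, where it was at that value. Both stay in the list's count and median.

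Relatives of the 7 genes were called in both directions. Of 15 listed paralogues 12 had a probe set annotated to 1 gene. Of these, 9 passed the filter on variation, which NDRG3, FAM162B and AK9 did not. In chronic hypoxia 4 rose and 1 fell against control in PC-3 cells, where 26.2% and 34.3% of all filtered probe sets did. In SK-OV-3 cells 1 rose and 5 fell, against 21.6% and 22.3%, and in WM793B cells 0 rose and 2 fell, against 18.2% and 21.5%. In cycling hypoxia the counts were 4 and 1 (against 22.9% and 22.3%), 0 and 3 (against 16.7% and 13.6%), and 0 and 0 (against 8.79% and 8.36%), and at an unadjusted p under 0.05 limma gave 2 higher in chronic hypoxia in WM793B cells, 0 higher in cycling hypoxia in SK-OV-3 cells, and 0 higher and 1 lower in cycling hypoxia in WM793B cells. TMEM45B, the nearest relative of TMEM45A, rose by 0.96 (SE 0.11, adjusted p = 0.000195) in chronic and by 1.22 (SE 0.11, adjusted p = 0.000144) in cycling hypoxia in PC-3 cells. DDIT4L, the relative of DDIT4, fell by 2.97 (SE 0.32, adjusted p = 0.000583) in cycling hypoxia in SK-OV-3 cells, opposite in direction to DDIT4 there, to a mean of 2.62 near the lowest value of the table. AK1, the cytosolic adenylate kinase, fell by 1.38 (SE 0.16, adjusted p = 0.000526) in the ovarian line and fell by 1.13 (SE 0.11, adjusted p = 0.000449) in WM793B cells under chronic hypoxia. NDRG4 fell by 0.81 (SE 0.19, adjusted p = 0.00737) in the prostate line and rose by 1.44 (SE 0.22, adjusted p = 0.00179) in the ovarian line, both under chronic hypoxia, at means of 3.96 and 3.15 and of 3.28 and 4.72 in control and chronic hypoxia, which are low levels where the size of a difference is uncertain.

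Around DDIT4, 16 listed genes of the mTORC1 pathway were on the array and 10 passed the filter on variation, which TSC1, TSC2, MTOR, RPTOR, MLST8 and AKT1S1 did not. In the order PC-3, SK-OV-3, WM793B, 4 rose and 3 fell, 2 rose and 4 fell, and 3 rose and 1 fell in chronic hypoxia, and in cycling hypoxia 6 and 3, 3 and 1, and 1 and 1. The shares of all filtered probe sets were those given for the paralogues, 26.2% and 34.3%, 21.6% and 22.3%, and 18.2% and 21.5% in chronic and 22.9% and 22.3%, 16.7% and 13.6%, and 8.79% and 8.36% in cycling hypoxia. SESN2, another stress-induced restraint on mTORC1, rose by 2.67 (SE 0.18, adjusted p = 1.39e-05) in chronic and 1.87 (SE 0.18, adjusted p = 0.00018) in cycling hypoxia in PC-3 cells and fell by 2.09 (SE 0.22, adjusted p = 0.000286) in chronic hypoxia in SK-OV-3 cells. DEPTOR, an inhibitor bound to the kinase complex, fell by 1.43 (SE 0.08) in SK-OV-3 cells in chronic and in cycling hypoxia (adjusted p = 1.39e-05 and 3.84e-05) and fell by 0.67 (SE 0.15, adjusted p = 0.0243) in cycling hypoxia in WM793B cells, a call that was lost with no filter (adjusted p = 0.0747) and with any of 4 arrays left out. PRKAA2, a catalytic subunit of the energy sensor AMPK, rose by 1.19 (SE 0.14, adjusted p = 0.000827) in chronic hypoxia in WM793B cells. Differences between lines in these genes were not tested.

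Around ERO1A, 10 of 12 listed genes of disulfide formation had a probe set annotated to 1 gene. Of these, 6 passed the filter on variation, which the bright PDIA3, PRDX4 and GPX8 and the dim GPX7 did not. In the same order of lines, 4 rose and 1 fell, 1 rose and 1 fell, and 3 rose and 1 fell in chronic hypoxia, and in cycling hypoxia 3 and 0, 1 and 1, and 2 and 1, where the 0 was also 0 at an unadjusted p under 0.05, against the same shares of all filtered probe sets. QSOX1, a sulfhydryl oxidase of the secretory pathway, rose in each line in chronic hypoxia, by 2.00 (SE 0.07, adjusted p = 1.02e-06) for PC-3, 2.77 (SE 0.09, adjusted p = 2.36e-06) for SK-OV-3 and 0.75 (SE 0.13, adjusted p = 0.00349) for WM793B cells. Under cycling hypoxia it rose by 1.44 (SE 0.07, adjusted p = 1.27e-05), 2.24 (SE 0.09, adjusted p = 1.71e-05) and 0.53 (SE 0.13, adjusted p = 0.0325). P4HB, the protein disulfide isomerase that ERO1A reoxidises, was read by its brightest filtered probe set, since a brighter one did not pass the filter, and rose by 0.99 (SE 0.06, adjusted p = 1.38e-05) in PC-3 and 0.82 (SE 0.06, adjusted p = 0.000144) in WM793B cells under chronic hypoxia and gave -0.08 (SE 0.12, adjusted p = 0.647) in SK-OV-3 cells.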

How the data were processed

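Biotin-labelled RNA of the 27 cultures was hybridised to Affymetrix Human Genome U133 Plus 2.0 arrays. The authors deposited 1 table of log2 values per probe set, made with GC-RMA, which corrects background by probe sequence, normalizes between arrays and summarises probes. Values ran from 2.28 to 15.52, and values at the lower end have no order. The number of arrays limits the precision. Platform annotation gave 1 gene symbol for 41097 probe sets, several for 1801 and none for 11777, and symbols were updated through RefSeq gene identifiers.

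Group means were compared with limma 3.58.1 (R 4.3.3) on the 19800 filtered probe sets, per line (9 arrays) or, for tests between lines, in 1 fit of 27 arrays. P-values were adjusted by Benjamini-Hochberg over all filtered probe sets, with a threshold of 0.05, and the fits were checked on simulated data. Each gene was taken from the filtered probe set of highest mean, which was the brightest of all for the 7 genes but not for ENO1, P4HB and PDIA6 among the lists. The other genes named have the largest or smallest absolute difference of their list in the comparison described, or the highest correlation with one of the 7. Genes, lists and tests were chosen with earlier results of these data known. Tests of the 7 genes against control and of their chronic response between lines were planned and are not reported, because those differences had served to choose the genes. Replicate numbers were not used as pairs. Alternatives were no filter, a level filter, 2 other scalings, another prior, a replicate block, the mean over probe sets, a spread from 27 arrays, each array left out and, added after seeing the data, the brightest of all probe sets with no filter. No batch is given in the labels.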

Additional observations from a re-analysis of the deposited data

Results flagged for a closer look

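How far values fell from chronic to cycling hypoxia differed between the 3 lines for 6 of the 7 genes by limma's F-test of the interaction. The adjusted p was 7.68e-08 for NDRG1, 0.000711 for ANKRD37, 6.72e-05 for TMEM45A, 0.00325 for DDIT4, 0.0079 for FAM162A and 0.00257 for AK4. Among all filtered probe sets 40.7% passed the same test. These calls, by the brightest probe set of each gene, held with each of the 27 arrays left out in turn, with the highest adjusted p at 0.02 for FAM162A. AK4 passed the F-test by 230630_at too (adjusted p = 0.0032) but not by 204348_s_at (0.0971) or 204347_at (0.861). ERO1A, not among the 6, passed it by 225750_at (0.000232) and 218498_s_at (0.0381). The test uses the arrays whose differences from control had served to choose the genes. Groups of 3 arrays were too small for a test of single outlying arrays.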

How the results depend on the processing

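The count of 3 of the 7 genes called lower in cycling than in chronic hypoxia in WM793B cells rose to 5 with the spread taken from all 27 arrays, to 5 with the mean over the probe sets of a gene, and to 3 to 5 with single arrays left out, where 5 was reached without control replicate 3. The other 14 counts recomputed, 10 of the 7 genes by comparison and 4 of the lists summed over lines and directions, stayed within 1.5 times their value under the alternatives run. List counts per line and direction were recomputed under 1 alternative only, no filter with the brightest of all probe sets, which gave in PC-3, SK-OV-3 and WM793B cells 2 higher and 2 lower, 2 and 4, and 1 and 1 of 12 paralogues in chronic and 4 and 2, 0 and 3, and 0 and 0 in cycling hypoxia. It gave 3 and 6, 2 and 6, and 3 and 1 of 16 mTORC1 genes in chronic and 6 and 3, 1 and 2, and 0 and 0 in cycling hypoxia, and 6 and 1, 2 and 2, and 3 and 1 of 10 disulfide genes in chronic and 6 and 0, 2 and 0, and 2 and 1 in cycling hypoxia. Over the 21 differences between cycling and chronic hypoxia of the members, none changed sign. DDIT4 in SK-OV-3 cells lost its call with no filter (adjusted p = 0.0827), after a second quantile normalization (0.0594), with arrays centred on the median (0.0534) and with the spread from all arrays (0.282), and TMEM45A and ERO1A in PC-3 cells lost theirs with that spread (0.306 and 0.0589). With the mean over probe sets, ERO1A was called in SK-OV-3 (-0.81, adjusted p = 5.26e-05) and WM793B cells (-0.38, adjusted p = 0.033), FAM162A in PC-3 (-0.25, adjusted p = 0.0347) and WM793B cells (-0.53, adjusted p = 0.00375), and the difference between lines for ERO1A (adjusted p = 0.013). The same mean turned the sign of PGK1 in PC-3 (-0.28), LOX in SK-OV-3 (0.10) and, in cycling hypoxia against control, ERO1B in WM793B cells (0.0519). Leaving out single arrays turned LOX in SK-OV-3 cells (-0.14 to 0.0168) and CA12 in WM793B cells (-0.00734 to 0.0433). The causes were not tested.

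Deviations of arrays with the same replicate number correlated at -0.05 to 0.15 in PC-3 and -0.09 to 0.16 in SK-OV-3 cells. The range in WM793B cells was -0.02 to 0.29, and 1, 1 and 4 of 9 pairs exceeded 0.1. By the median, same-number arrays ran more alike than others only in the melanoma line (0.10 against -0.04). For the prostate line the medians were -0.01 against 0.005, and for the ovarian line -0.04 against -0.02. Replicate 3 of WM793B deviated most from its group mean in control, chronic and cycling hypoxia alike (SD over probe sets 0.22, 0.28 and 0.25). The cause was not tested. With the replicate number as a block, 6, 6 and 4 of the 7 genes were called lower in cycling than in chronic hypoxia in PC-3, SK-OV-3 and WM793B cells, and 6 differed between lines. The block took the call from DDIT4 in SK-OV-3 cells (adjusted p = 0.0522) and gave one to ERO1A in SK-OV-3 (0.0367) and TMEM45A in WM793B cells (0.0412).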
